A study of Mus musculus with 18 samples.

Results

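The base of the cochlea of Fst conditional knock-out (cKO) mice was compared with that of control mice by bulk RNA sequencing. The comparison uses 6 of the 18 libraries of the study, 3 of Fst cKO base and 3 of control base, chosen by their labelled genotype and region. All mice were 4 weeks old and untreated, and the genotype of the controls is labelled WT. The cochlear pieces of a region and genotype were combined into 1 RNA pool, and each pool was split into 3 technical libraries, for which the labels name TruSeq RNA v2 with Ribo-Zero depletion. Middle and apex were prepared in the same way in both genotypes and serve here only to show where the base differs. The Cre driver, the part of Fst that is deleted, and the number and sex of the animals in a pool are not given in the sources used here. Since each group is n = 1 pool, every difference below is a difference between pools, and each p-value measures only the spread between technical libraries.

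Fst encodes follistatin, a secreted protein that binds activins and some bone morphogenetic proteins (BMPs) and keeps them from their receptors. Along the coiled cochlea, the base receives high-frequency sound and the apex low-frequency sound. The cochlear duct carries sensory hair cells and supporting cells, the spiral ganglion neurons that lead sound information to the brain, the myelinating Schwann cells around their fibres, and the stria vascularis, an epithelium that pumps potassium into the endolymph. The duct is enclosed in bone and lies close to the meninges, brainstem and cerebellum, and bone of the skull base holds marrow.

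Library totals lay between 25860598 and 25982171 counts in Fst cKO base and between 24446760 and 31117987 counts in control base, where replicate 3 had the lowest total. The libraries held 21781 to 22364 genes with at least 1 count. A count of 0 allows up to 3 counts in a library, which is 0.0964 to 0.123 CPM (the count scaled to a library total of 1e+06). Reads carry no molecular identifiers, so such limits cover counting error only. Levels below are CPM as mean ± SD of 3 libraries, and CPM does not correct for gene length, so levels are compared between groups and not between genes. Changes are log2 values, Fst cKO minus control, ± a standard error worked back from the edgeR quasi-likelihood test. It is the absolute log2 change divided by the square root of the F statistic. It is an approximate value and not a spread measured directly between libraries. A gene was called when its Benjamini-Hochberg adjusted p over the 17901 tested genes was under 0.05 and its absolute log2 change was at least 1.

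The targeted gene was low in the base in both genotypes. Fst (chr13:114452290-114458951, minus strand, GRCm38/mm10) stood at 1.97, 1.89 and 1.73 CPM in Fst cKO base, against 2.06, 2.04 and 2.41 CPM in control base. All 3 Fst cKO values lay under all 3 control values, but the log2 change was only -0.22 ± 0.15 and did not pass the test (edgeR, adjusted p = 0.308). In the middle and the apex the log2 change of Fst was -1.10 and -1.29, and the difference between the base and apex changes, 1.07, was called. The base libraries therefore give little check of the knock-out label through the targeted gene itself.

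In the base, 542 genes or 3.03% of those tested were called, 450 higher in Fst cKO (2.51%) and 92 lower (0.514%). Most of them were scarce transcripts. Of the called genes, 188 higher and 60 lower ones averaged under 1 CPM over the base libraries, and 17 of the higher ones had no count in any control base library. Among the 12353 genes with at least 5 CPM, 89 were called higher (0.72%) and 13 lower (0.105%). Among the 2166 genes with at least 100 CPM, 3 were called higher (0.139%) and 2 lower (0.0923%). Technical libraries of 1 pool differ so little that small changes pass the adjusted p alone: without the fold threshold 6459 genes passed (36.1%), 2945 higher (16.5%) and 3514 lower (19.6%). All 3 Fst cKO libraries lay above all 3 control libraries for 3877 genes (21.7%) and below them for 4040 genes (22.6%). Over all tested genes the median log2 change was -0.02 and the median absolute log2 change 0.12.

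**Figure D1:**
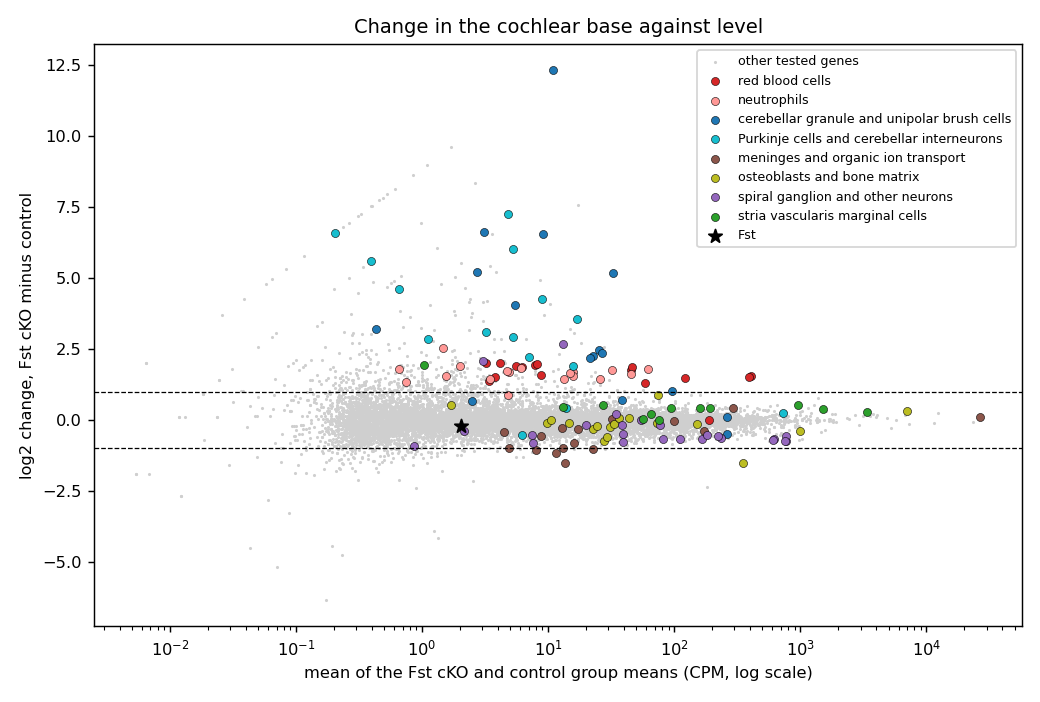
Log2 change in the cochlear base (Fst cKO minus control, edgeR fit) against the mean of both group means in CPM on a log axis, 1 point per tested gene, with 8 gene lists in colour and dashed lines at log2 changes of 1 and -1. Most cerebellar, red cell and neutrophil genes lie above the upper line, most abundant neuronal genes between -1 and 0, and most strial genes between 0 and 1. Genes with 0 control counts, such as Gabra6, are drawn at fitted values that depend on the prior count and are no measure of size.

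The strongest rises in Fst cKO base were genes of the cerebellum. Of 16 tested genes of granule and unipolar brush cells, the excitatory interneurons of the cerebellar cortex, 12 were called higher and none lower, with a median log2 change of 2.41. Of 15 tested genes of Purkinje cells, the output neurons of that cortex, and of its inhibitory interneurons, 12 were called higher and none lower, with a median of 3.12, which was 1.12 with limma on log2(FPKM + 1). In the middle the medians of these lists were 0.12 and 0.39, and in the apex both were 0.00. A gene without counts in either apex pool, such as Gabra6, enters the apex median with a change of 0.

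Gabra6, a GABA-A receptor subunit known from cerebellar granule cells, was at 22.04, 22.4 and 21.2 CPM in Fst cKO base, against 0, 0 and 0 CPM in control base. It was therefore at least 630-fold higher in Fst cKO base, taking 3 counts over the control libraries as the floor, and was called. Cbln3, a cerebellin of granule cells, was at 62.7, 63.7 and 63.8 CPM in Fst cKO base, against 1.67, 1.81 and 1.64 CPM in control base. Its log2 change was 5.20 ± 0.069. The groups stood far apart for both genes, and no control library held more than 1.81 CPM of either.

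Neurod1, a transcription factor of differentiating granule cells, averaged 17.9 ± 0.537 CPM in Fst cKO base and 0.184 ± 0.0991 CPM in control base, a log2 change of 6.55 ± 0.17. Its relative Neurod2 was at 6.14 ± 0.704 CPM in Fst cKO base and at 0.0566 ± 0.0136 CPM in control base, below the floor of 3 counts in each control library (log2 6.62). Pax6, which marks granule cells and their precursors, was at 5.32 ± 0.307 CPM in Fst cKO base and 0.138 ± 0.0506 CPM in control base, a log2 change of 5.21. Genes already present in control base moved less on the log2 scale. Cbln1, Zic1, Grin2c and Chn2 were between 7.66 and 8.69 CPM in control base and changed by 2.19 to 2.47 on the log2 scale. Gabrd, an extrasynaptic GABA-A receptor subunit, changed by 4.06, Eomes, a factor of unipolar brush cells, by 3.20, and Fat2, a large cadherin, by 1.04. Etv1 at 0.71 and Zic4 at 0.69 passed the adjusted p alone, as did Zic2 at 0.12. Slc17a7, the vesicular glutamate transporter of granule cells and of spiral ganglion neurons, moved the other way, to 217 ± 4.38 CPM in Fst cKO base, against 305 ± 6.23 CPM in control base (log2 -0.50 ± 0.02).

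Purkinje cell genes were likewise divided between scarce and abundant ones. Pcp2, whose product is found in Purkinje cells and retinal bipolar cells, was at 9.55, 10.97 and 10.4 CPM in Fst cKO base, against 0.0321, 0.0324 and 0.450 CPM in control base. Its log2 change was 6.04 ± 0.29, and control replicate 3 alone stood above the floor. Car8 (3.55), Ppp1r17 (3.12), Slc1a6 (2.94) and Calb1 (1.89), genes of Purkinje cell signalling and calcium buffering, were called higher too. Calb1 was also called higher in the middle (2.40) and Car8 in the apex (1.12). Itpr1, the calcium release channel abundant in Purkinje cells, was at 793 ± 8.46 CPM in Fst cKO base and already at 655 ± 3.05 CPM in control base, and its log2 change was 0.27. Foxp2, at 5.11 ± 0.577 CPM in Fst cKO base and 7.35 ± 0.373 CPM in control base, fell by 0.53 on the log2 scale.

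Of the interneuron genes on this list, Gad1, which makes GABA, was at 16.2, 17.7 and 16.5 CPM in Fst cKO base, against 0.868, 0.712 and 1.06 CPM in control base (log2 4.26 ± 0.13). Slc32a1, the vesicular transporter for GABA and glycine and on no list, had 406 counts over the 3 Fst cKO libraries and 1 count over the 3 control libraries, a ratio of 451 with an exact 95% counting interval of 80.5 to 1.79e+04. Slc6a5, the glycine transporter of glycinergic neurons, changed by 4.64. Lhx1 and Lhx5, homeobox genes of Purkinje cells and interneurons, reached 1.97 and 0.771 CPM in Fst cKO base, against 0.262 and 0.0107 CPM in control base. Skor2, a corepressor of Purkinje cells, was at 0.411 CPM in Fst cKO base with no count in control base, at least 11.8-fold higher.

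Further genes among the 12 largest rises at 1 CPM or more were on no list. Rgs8, a regulator of G protein signalling, was at 33.0, 33.3 and 35.6 CPM in Fst cKO base, against 0.129, 0.259 and 0.123 CPM in control base (log2 7.57 ± 0.14). It was also called higher in the middle and not in the apex, where its change was -0.39. The middle change, log2 8.52, rests on 0.0230 CPM in control middle, under the floor, beside 10.1 CPM in Fst cKO middle. Barhl2, a homeobox factor, was at least 63.0-fold higher in Fst cKO base, where it averaged 2.18 CPM, with no count in control base. Syndig1l had 202 counts over the 3 Fst cKO libraries and 3 over the control libraries, a ratio of 74.8 (interval 25.2 to 366). Mybpc3, a myosin-binding protein known from heart muscle, was at 7.08 ± 0.480 CPM in Fst cKO base and 0.0761 ± 0.0824 CPM in control base (log2 6.58). Rps13-ps1, a processed pseudogene whose reads cannot be told apart from those of a parent gene with confidence, was at least 98.1-fold higher in the base and higher by log2 9.47 and 9.42 in middle and apex.

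The promoters of Gabra6 and Neurod2, each of 300 bases from 250 before the annotated start to 50 after it (RefSeq, GRCm38.p6), are given here because these genes had next to no counts in control base. The letters CAGATG, an E-box form bound by NeuroD-type factors, were searched on both strands and are in capitals where found.

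Gabra6, chr11:42321023-42321322, minus strand: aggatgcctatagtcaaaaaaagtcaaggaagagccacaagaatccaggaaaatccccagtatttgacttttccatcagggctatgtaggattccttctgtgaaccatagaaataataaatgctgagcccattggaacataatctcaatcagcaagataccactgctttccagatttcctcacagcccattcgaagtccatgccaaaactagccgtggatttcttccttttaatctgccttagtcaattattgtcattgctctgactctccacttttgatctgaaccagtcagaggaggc

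Neurod2, chr11:98329596-98329895, minus strand: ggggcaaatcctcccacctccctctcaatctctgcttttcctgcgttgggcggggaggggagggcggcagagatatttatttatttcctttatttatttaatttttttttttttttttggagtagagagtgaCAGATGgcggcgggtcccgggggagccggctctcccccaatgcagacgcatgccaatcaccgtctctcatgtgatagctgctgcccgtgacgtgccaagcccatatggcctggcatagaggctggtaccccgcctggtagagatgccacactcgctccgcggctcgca

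Neurod2 holds 1 match and Gabra6 none. Of the granule cell list, 3 of the 13 genes with a promoter in the table hold a match (Chn2, Etv1 and Neurod2), and of the Purkinje cell list 2 of 5 (Pcp2 and Slc6a5), beside 19.2% of the 27025 genes with such a promoter. A match describes letters only.

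For the whole lists, the summed level of the granule cell genes ran from 947 to 963 CPM in Fst cKO base and from 668 to 691 CPM in control base, with 10 of 16 genes at 1 CPM or more in control base and Gabra6 at 0 there. The Purkinje cell list summed to 932 to 949 CPM in Fst cKO base and 685 to 694 CPM in control base, with 7 of 15 genes at 1 CPM or more in control base and Skor2 at 0. Itpr1 alone holds most of the Purkinje cell sum in both groups. Slc17a7, which fell, holds a large part of the granule cell sum in control base. The sums therefore say little about the scarce members. The change in the base was larger than in the middle for 11 granule and 9 Purkinje cell genes and smaller for 1 Purkinje cell gene, and larger than in the apex for 11 and 10, by the test of the difference itself. Over all genes that test called 4.7% for base against middle (2.54% with the base change higher, 2.16% lower) and 2.41% for base against apex (1.56% higher, 0.855% lower). What part cerebellar RNA has in the other neural changes below was not tested.

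**Figure D2:**
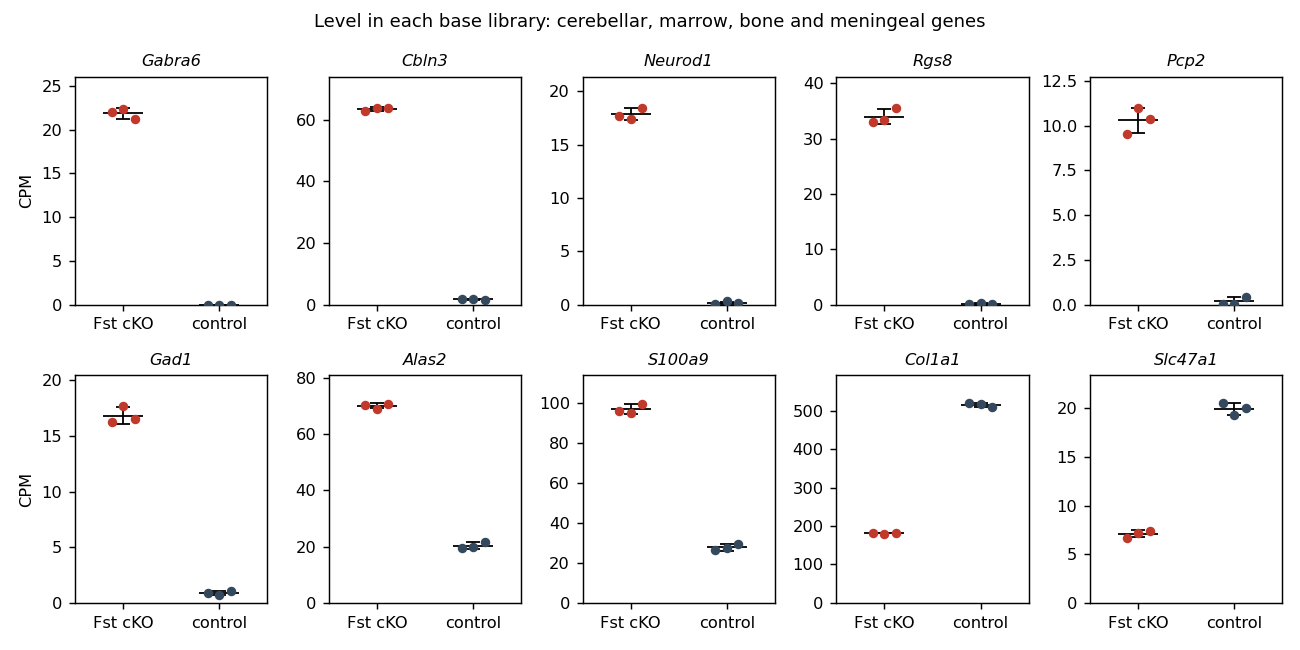
CPM of 10 genes in each base library on linear axes from 0, Fst cKO left (red) and control right (blue), with the mean and SD of 3 technical libraries as bars. The 6 neuronal genes (Gabra6 to Gad1) stand at 9.55 CPM or more in each Fst cKO library and at 1.81 CPM or less in each control library, Alas2 and S100a9 are higher and Col1a1 and Slc47a1 lower in Fst cKO base, and in no panel do the groups overlap. Of all tested genes 21.7% are without overlap upward and 22.6% downward.

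Glial genes of the brain moved less than these neuronal genes. Of 10 tested genes of astrocytes and Bergmann glia, 2 were called higher and 8 passed the adjusted p on the higher side (median log2 0.51). Of all tested genes 2.51% were called higher and 16.5% passed on that side. Aldoc, a glycolytic enzyme of Purkinje cells and astrocytes, was at 125 ± 2.49 CPM in Fst cKO base and 65.5 ± 0.769 CPM in control base, log2 0.93. Acsbg1 changed by 1.39 and Slc6a11, a GABA transporter, by 1.08, and the call of Slc6a11 is lost without control replicate 2 (0.70) or without Fst cKO replicate 1 (0.94). Gfap, at 23.7 ± 0.488 CPM in Fst cKO base and 23.9 ± 1.48 CPM in control base, gave -0.02. Of 9 tested oligodendrocyte genes 2 were called higher, the lineage factors Olig1 (1.77) and Olig2 (2.17), while Mog (0.99) and Mobp (0.60), genes of central myelin, passed the adjusted p alone (list median 0.44). The same list had a median of -3.10 in the middle and -3.43 in the apex, and the base change was above that of the middle for all 9 tested genes.

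Genes of the marrow rose as well. Of 16 tested red blood cell genes 15 were called higher and none lower, with a median log2 change of 1.68, and for these 15 all Fst cKO libraries lay above all control libraries. Of all tested genes 2.51% were called higher, and 21.7% had all Fst cKO libraries above all control libraries. Hbb-bs, an adult beta globin, was at 610, 605 and 608 CPM in Fst cKO base, against 206, 211 and 199 CPM in control base (log2 1.55 ± 0.015). Hba-a1 was at 579 ± 3.21 CPM in Fst cKO base and 201 ± 1.94 CPM in control base (1.52), and Hba-a2 at 179 ± 5.003 CPM in Fst cKO base and 64.1 ± 3.20 CPM in control base (1.48). The alpha globin genes are near-identical copies, as are Hbb-bs and Hbb-bt (1.30), so the split of counts within each pair is uncertain. Alas2, which starts the making of heme in erythroid precursors, was at 70.3, 69.1 and 70.8 CPM in Fst cKO base, against 19.4, 19.8 and 21.8 CPM in control base (1.78 ± 0.037). The membrane proteins Slc4a1 (1.86), Epb42 (2.02) and Rhag (2.01) and the factor Klf1 (1.37) moved by similar amounts. Sptb, a spectrin that is also made in muscle and brain, was the exception at 189 ± 1.85 CPM in Fst cKO base and 188 ± 2.45 CPM in control base. The red cell list summed to 1849 to 1866 CPM in Fst cKO base and 751 to 756 CPM in control base.

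The promoters of Hbb-bs and Alas2 are printed because the red cell genes moved together, with the letters AGATAA, a form bound by GATA factors, in capitals on either strand (RefSeq, GRCm38.p6).

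Hbb-bs, chr7:103827879-103828178, minus strand: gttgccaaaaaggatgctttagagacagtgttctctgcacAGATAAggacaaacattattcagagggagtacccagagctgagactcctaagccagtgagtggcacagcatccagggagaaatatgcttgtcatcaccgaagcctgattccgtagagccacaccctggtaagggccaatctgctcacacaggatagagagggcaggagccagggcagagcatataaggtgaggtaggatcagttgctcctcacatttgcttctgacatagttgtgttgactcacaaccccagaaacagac

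Alas2, chrX:150547167-150547466, plus strand: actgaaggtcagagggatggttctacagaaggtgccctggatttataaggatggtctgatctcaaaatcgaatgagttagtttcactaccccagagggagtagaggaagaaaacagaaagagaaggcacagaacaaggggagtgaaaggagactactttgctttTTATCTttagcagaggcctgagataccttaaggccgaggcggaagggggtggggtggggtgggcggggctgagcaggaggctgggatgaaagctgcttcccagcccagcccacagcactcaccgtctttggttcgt

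Hbb-bs holds 1 match and Alas2 1, written on the other strand as TTATCT. Of the 13 red cell genes with a promoter in the table, 6 hold a match (Alas2, Epb42, Hbb-bs, Hemgn, Rhd and Trim10), beside 12.7% of all genes with a promoter there.

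Neutrophils and their precursors gave the same direction. Of 18 tested genes 17 were called higher, and the remaining one, Csf3r, the receptor of granulocyte colony-stimulating factor, changed by 0.89 and passed the adjusted p alone (list median 1.68). S100a9, a subunit of calprotectin, was at 96.1, 94.97 and 99.7 CPM in Fst cKO base, against 26.3, 27.7 and 29.4 CPM in control base (1.80 ± 0.032). Genes of early granules, Mpo (1.45), Elane (1.43) and Prtn3 (1.70), rose by about as much as those of later granules, Ltf (1.44), Camp (1.70) and Ngp (1.61). Cxcr2, a chemokine receptor of mature neutrophils, had the largest change of the list, 2.53 ± 0.23, at low levels of 2.51 CPM in Fst cKO base and 0.430 CPM in control base. The list summed to 386 to 389 CPM in Fst cKO base and 120 to 124 CPM in control base. No member of either list was at 0 in a group.

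Other blood lineages moved less. Of 13 tested B cell genes 1, Dntt, was called higher, at 0.861 CPM in Fst cKO base and 0.422 CPM in control base (log2 1.03), a call lost without control replicate 2 (0.86) or without Fst cKO replicate 2 (0.98). Rag1, a recombinase of B cell precursors, was at 2.87 ± 0.304 CPM in Fst cKO base and 5.47 ± 0.460 CPM in control base (-0.95), and without control replicate 3 it was called lower (-1.01). The B cell list had a median of -0.23 and summed to 20.7 to 23.0 CPM in Fst cKO base and 25.9 to 28.4 CPM in control base, with Vpreb2 at 0 in control base. None of 12 megakaryocyte and platelet genes was called (median 0.29), and their largest value, 1.18 for Gp6, did not pass. None of 12 macrophage genes was called either (median 0.15), although Lyz2, a lysozyme that neutrophil precursors also make, changed by 0.72. Proliferation genes rose: 7 of 15 were called higher and 14 passed the adjusted p on that side (median 0.97), with Mki67 at 44.2 ± 0.558 CPM in Fst cKO base and 16.4 ± 0.270 CPM in control base (1.42 ± 0.042) and Top2a at 1.16. What part dividing marrow precursors have in this list was not tested. Over all tested genes 2.51% were called higher and 16.5% passed on the higher side.

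Red cell genes were higher in base and apex but not in the middle. The red cell list had medians of 1.68 in base, -0.25 in middle and 1.38 in apex, and 15 of its 16 genes were called higher in the apex too and none in the middle. In the apex 2.04% of all tested genes were called (1.49% higher, 0.553% lower) and in the middle 2.72% (2.15% higher, 0.575% lower). The base change was larger than that of the middle for 15 red cell and all 18 neutrophil genes, and larger than that of the apex for 0 and 5. Control pools differed between regions as well. The red cell list summed to 751 to 756 CPM in control base, 1282 to 1284 CPM in control middle and 623 to 637 CPM in control apex. For neutrophils the sums were 120 to 124 CPM in control base, 333 to 337 CPM in control middle and 102 to 104 CPM in control apex. Platelet genes showed another order, with a median of 2.48 in apex, beside 0.29 in base and -1.03 in middle. The base change lay below that in apex for 7 of 12, among them Ppbp, a platelet chemokine, at 0.15 in base and 4.999 in apex.

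**Figure D3:**
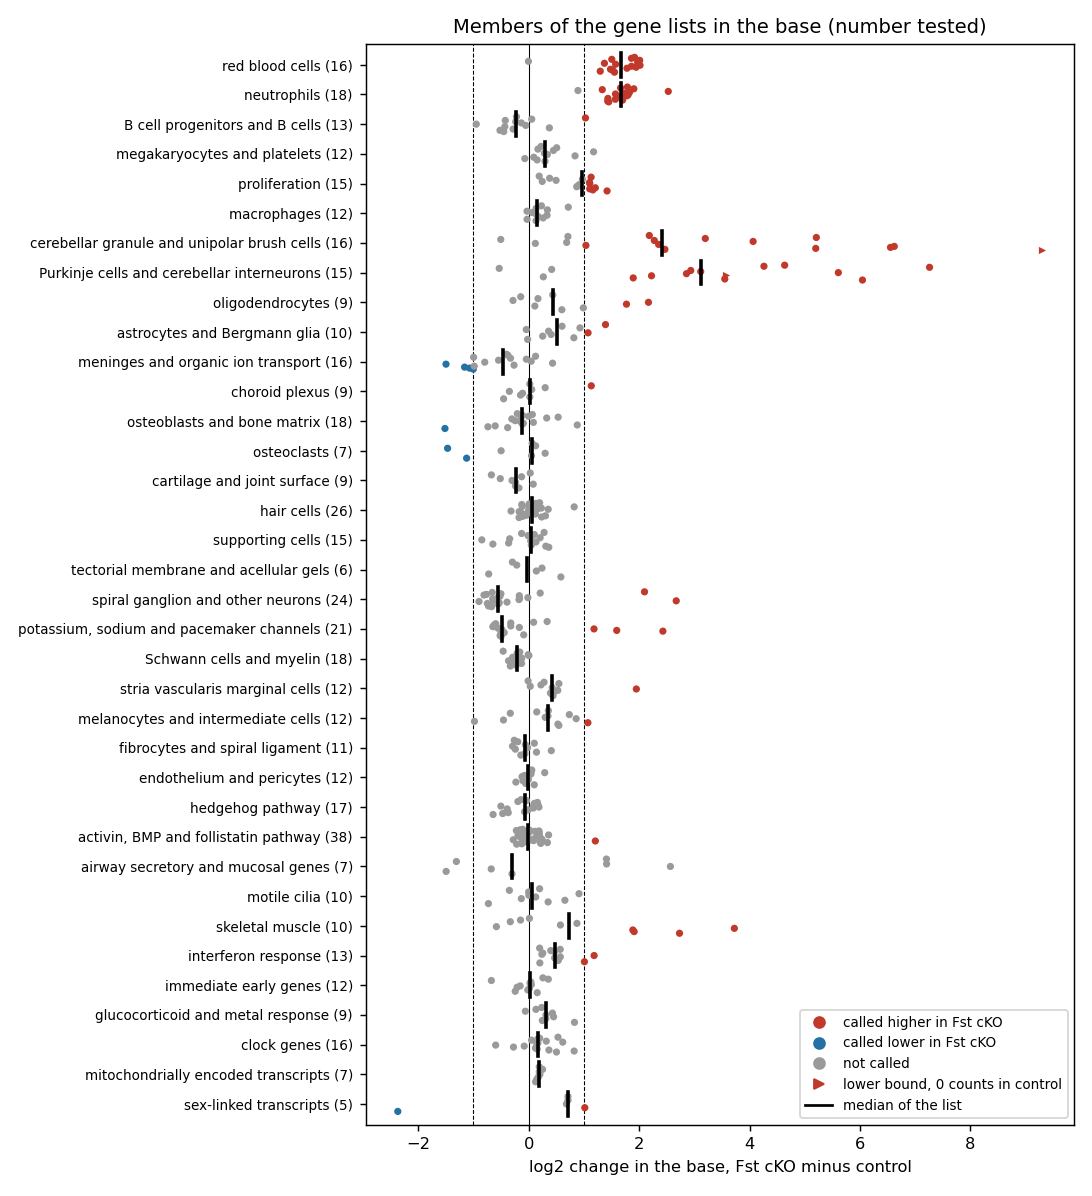
Log2 change in the base (Fst cKO minus control) of each tested member of the gene lists with at least 5 tested members, coloured by call, with the list median as a black bar and dashed lines at 1 and -1. Triangles are lower bounds for genes with 0 counts in control base. Red cell and neutrophil members lie right of 1 except 1 of each list, 12 of 16 granule and 12 of 15 Purkinje cell members were called right of 1, neuronal, channel and Schwann cell members mostly between -1 and 0, and hair cell and supporting cell members around 0.

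Transporters of the meninges were lower in Fst cKO base. Of 16 tested genes of meningeal cells and organic ion transport, 4 were called lower and none higher, and 12 passed the adjusted p on the lower side (median -0.47). Over all tested genes 0.514% were called lower and 19.6% passed as lower. Slc47a1, an exporter of organic cations, was at 6.69, 7.24 and 7.43 CPM in Fst cKO base, against 20.5, 19.3 and 20.04 CPM in control base (log2 -1.50 ± 0.067). Slc22a6, an importer of organic anions, was at 7.13 ± 0.370 CPM in Fst cKO base and 15.8 ± 0.231 CPM in control base (-1.16). The GABA and betaine transporters Slc6a12 (-1.07) and Slc6a13 (-1.003) lay close to the fold threshold. Neither was called without control replicate 3 (-0.97 for both), and Slc6a13 was not called in a fit to the 6 base libraries alone (-0.99). Slc22a8 (-0.99) and Foxd1 (-0.997) came just short of the fold threshold, and Slc13a3 (-0.79) lay further from it. The list is not uniform, since Slc13a4, a sulfate transporter, rose to 336 ± 3.22 CPM in Fst cKO base, against 247 ± 2.95 CPM in control base (0.43), and Ptgds, prostaglandin D synthase, was at 27928 ± 38.5 CPM in Fst cKO base and 25450 ± 44.1 CPM in control base (0.13). These abundant genes hold most of the list's sum, 28597 to 28664 CPM in Fst cKO base and 26165 to 26245 CPM in control base. In the middle the list median was 0.47, and the base change lay below the middle change for 8 genes, while in the apex it was -0.27. Of 9 choroid plexus genes 1 was called, Prlr at 1.13, a call that is lost with DESeq2 and without Fst cKO replicate 3. Ttr, the thyroxine carrier made by choroid plexus, changed by -0.45.

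Bone matrix genes did not move as a block. Col1a1, the alpha 1 chain of type I collagen, was at 182, 180 and 182 CPM in Fst cKO base, against 519, 517 and 508 CPM in control base (log2 -1.52 ± 0.015), the only called gene of 18 in the osteoblast list. Col1a2, its partner chain, was at 863 ± 1.09 CPM in Fst cKO base and 1116 ± 25.5 CPM in control base, a change of -0.38. Osteocalcin, on the neighbouring genes Bglap (-0.74) and Bglap2 (-0.61), fell as well, whereas bone sialoprotein, Ibsp, rose to 96.4 ± 1.72 CPM in Fst cKO base, against 52.1 ± 1.66 CPM in control base (0.88), and osteopontin, Spp1, to 7868 ± 13.2 CPM in Fst cKO base, against 6231 ± 43.3 CPM in control base (0.33). Bglap and Bglap2 are close copies, so the split between them is uncertain. The osteoblast factors Sp7 (-0.11) and Runx2 (-0.10) did not pass the test. The osteocyte genes Sost (-0.30), Mepe (-0.25) and Dmp1 (-0.15) fell slightly. The list summed to 9475 to 9500 CPM in Fst cKO base and 8430 to 8464 CPM in control base, and its median was -0.13, beside 0.93 in the middle and 0.71 in the apex. The base change lay below the middle change for 9 of 18 genes and below the apex change for 5.

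Osteoclast genes gave a mixed result, with 2 of 7 called lower, Acp5, tartrate-resistant acid phosphatase, at 4.73 ± 0.281 CPM in Fst cKO base and 10.2 ± 0.223 CPM in control base (-1.12) and Atp6v0d2, a proton pump subunit (-1.47), while Ctsk, cathepsin K, gave 0.05 and did not pass. Cartilage genes were not called in 9 tested, with Col2a1 at -0.24 and Acan at -0.18. Muscle genes were scarce, at 1.36 CPM or less in either group, and 4 of 10 tested were called higher, Acta1 (2.73), Myh1 (1.89), Ckm (1.91) and Myh2, with 40 counts in Fst cKO base and 3 in control base. Airway genes, which were higher by a median of 5.61 in the apex, were not called in the base, where Bpifa1 changed by -0.30.

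Among the lists of cochlear cell types, the abundant neuronal genes were lower in Fst cKO base by similar amounts. Of 24 tested genes of spiral ganglion and other neurons, 19 passed the adjusted p on the lower side and 3 on the higher side (median log2 -0.55, beside -0.02 over all genes), though none of the 19 reached the fold threshold. Of all tested genes 19.6% passed as lower and 16.5% as higher. The summed level of the 24 neuronal genes was 3825 to 3845 CPM in Fst cKO base and 5849 to 5917 CPM in control base. In bulk RNA, fewer cells of a type and less RNA per cell cannot be told apart.

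Nefh, the heavy neurofilament chain, was at 578, 584 and 576 CPM in Fst cKO base, against 974, 956 and 928 CPM in control base (log2 -0.73 ± 0.014). Calb2, calretinin, a calcium buffer of spiral ganglion neurons and inner hair cells, was at 567, 573 and 565 CPM in Fst cKO base, against 938, 946 and 960 CPM in control base (-0.75 ± 0.013). Snap25, a protein of vesicle release, was at 628, 630 and 626 CPM in Fst cKO base, against 925, 917 and 902 CPM in control base (-0.55 ± 0.0099). In each of these genes all Fst cKO libraries lay under all control libraries with a gap many times the spread within a group. Whatever the gap, 22.6% of all tested genes had every Fst cKO library under every control library. Nefm (-0.68) and Nefl (-0.71) gave like values, but they overlap on chromosome 14 and the strand setting of the counting is not given in the sources used here. Tubb3 (-0.67), Syt2 (-0.62), Uchl1 (-0.65), Elavl4 (-0.66), Pvalb (-0.53) and Scrt2 (-0.76) fell likewise. Markers that set apart subtypes of type I spiral ganglion neurons moved by less or more: Lypd1 by -0.55, Grm8 by -0.52, Pcdh20 by -0.17 and Pou4f1 by -0.81. For type II neurons, Prph, peripherin, was at 1.86 ± 0.614 CPM in Fst cKO base and 2.44 ± 0.207 CPM in control base and did not pass (-0.39), while Th, at 0.604 CPM in Fst cKO base and 1.13 CPM in control base, passed at -0.90.

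On the same neuronal list 2 genes were called higher. Syt1, the synaptotagmin of forebrain and cerebellar synapses, was at 23.3, 21.9 and 23.0 CPM in Fst cKO base, against 3.66, 3.24 and 3.76 CPM in control base (2.67 ± 0.07), and Gap43, a growth cone protein, was at 4.95 ± 0.452 CPM in Fst cKO base and 1.14 ± 0.0684 CPM in control base (2.10). Rbfox3, the neuronal nuclear antigen NeuN, changed by 0.21. These genes stand beside the cerebellar lists above, and what share of them comes from which tissue was not tested.

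Ion channels were likewise split between falls and rises. Of 21 tested channel genes 15 passed on the lower side and 5 on the higher side, of which 3 were called (median -0.48). The shares passing over all tested genes were 19.6% lower and 16.5% higher. Kcna2, a potassium channel of axons, was at 345, 345 and 348 CPM in Fst cKO base, against 489, 490 and 498 CPM in control base (-0.52 ± 0.014), and its partner Kcna1 changed by -0.50. Kcnc1 (-0.49), a channel of fast firing, Scn8a (-0.55) and Scn4b (-0.65), of sodium currents at the axon, and the pacemaker channels Hcn2 (-0.63) and Hcn4 (-0.60) lay within a narrow band. Kcnd2, an A-type potassium channel abundant in granule cells, was instead at 7.61 ± 0.828 CPM in Fst cKO base and 1.38 ± 0.222 CPM in control base (2.43), and Kcnd3 (1.60) and Scn2a (1.18) were called higher as well. The list summed to 2058 to 2091 CPM in Fst cKO base and 2710 to 2778 CPM in control base.

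Schwann cell genes fell by less. Of 18 tested, 16 passed on the lower side and none on the higher side, and none reached the fold threshold (median -0.21, sum 10816 to 10833 CPM in Fst cKO base and 11704 to 11772 CPM in control base). Over all tested genes 19.6% passed as lower and 16.5% as higher. Pmp22, a protein of peripheral myelin, was at 671, 669 and 670 CPM in Fst cKO base, against 785, 772 and 785 CPM in control base (-0.23 ± 0.0088). The groups did not overlap, which held in this direction for 22.6% of all tested genes. Prx gave -0.30 and Ugt8a -0.46. Mbp (-0.22) is made by Schwann cells and oligodendrocytes alike. Sox10, the lineage factor of Schwann cells and melanocytes, gave 0.01 and S100b -0.01, and neither passed.

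Genes of the stria vascularis were higher. Of 12 tested genes of marginal cells, which secrete potassium into the endolymph, 1 was called higher, 10 passed the adjusted p on the higher side and none on the lower side (median 0.42, sum 7324 to 7331 CPM in Fst cKO base and 5706 to 5714 CPM in control base). Over all tested genes 2.51% were called higher and 16.5% passed on the higher side. Slc12a2, the chloride cotransporter that loads marginal cells with potassium, was at 1726, 1751 and 1729 CPM in Fst cKO base, against 1302, 1312 and 1321 CPM in control base (log2 0.40 ± 0.0045). Atp1b2, a beta subunit of the sodium pump, was at 1138 CPM in each Fst cKO base library, against 771, 777 and 773 CPM in control base (0.55 ± 0.0068). The apical potassium channel subunits Kcnq1 (0.44) and Kcne1 (0.42), the chloride channel subunit Bsnd (0.47) and the regulator Esrrb (0.43) rose as well. Abcg1 (0.03) and Shroom3 (-0.01) did not pass. The 1 called gene had the largest change of the list, 1.95, well apart from the median of 0.42.

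Pigment cell genes of the stria showed the same direction for the intermediate cells. Of 12 tested, 8 passed on the higher side and 2 on the lower side (median 0.35), beside 16.5% and 19.6% of all tested genes. Dct, dopachrome tautomerase, was at 775, 778 and 776 CPM in Fst cKO base, against 541, 526 and 536 CPM in control base (0.53 ± 0.0092), and Kcnj10, the potassium channel of the endocochlear potential, was at 350, 349 and 346 CPM in Fst cKO base, against 235, 240 and 235 CPM in control base (0.55 ± 0.015). Tyr, tyrosinase, was called at 47.6 ± 1.52 CPM in Fst cKO base and 22.5 ± 0.819 CPM in control base (1.07), with Mlana at 0.86 and Slc45a2 at 0.74. Pmel (-0.46) and Tyrp1 (-0.98), scarce here, were lower. Hpse, a heparanase, averaged 208 ± 2.35 CPM in Fst cKO base and 112 ± 0.954 CPM in control base (0.88), and Gpnmb, a glycoprotein of melanosomes and macrophages, 178 ± 4.52 CPM in Fst cKO base and 95.1 ± 2.37 CPM in control base (0.90).

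**Figure D4:**
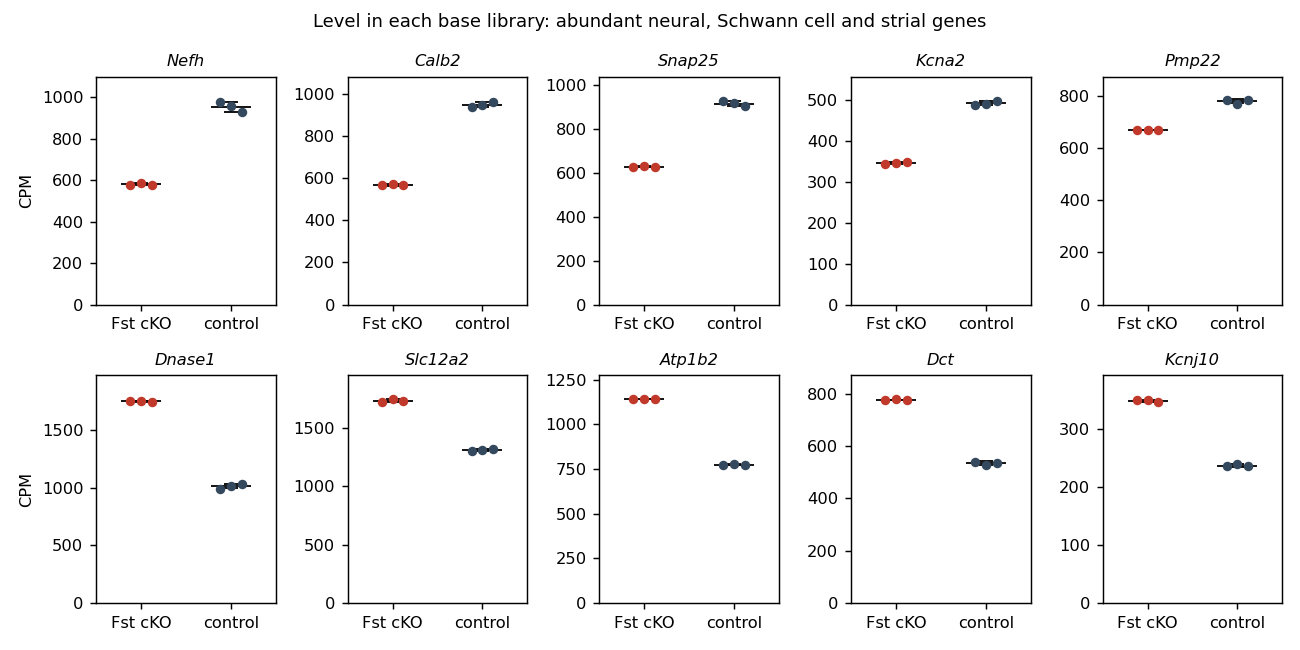
CPM of 10 abundant genes in each base library on linear axes from 0, Fst cKO left (red) and control right (blue), with the mean and SD of 3 technical libraries as bars. The neuronal genes Nefh, Calb2, Snap25 and Kcna2 and the Schwann cell gene Pmp22 are lower in Fst cKO base, Dnase1 and the strial genes Slc12a2, Atp1b2, Dct and Kcnj10 are higher, and the groups overlap in none of them. Lack of overlap holds for 22.6% of all tested genes downward and 21.7% upward.

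No gene of the sensory and support tissue lists was called, though some passed the adjusted p. Of all tested genes 16.5% passed it on the higher and 19.6% on the lower side. None of 26 tested hair cell genes was called, 3 passed on the higher and 2 on the lower side (median 0.06, sum 401 to 408 CPM in Fst cKO base and 399 to 415 CPM in control base). Ocm, oncomodulin of outer hair cells, was at 39.0, 38.2 and 37.1 CPM in Fst cKO base, against 38.5, 38.4 and 36.6 CPM in control base, and Slc26a5, prestin, at 3.66 ± 0.307 CPM in Fst cKO base and 3.32 ± 0.361 CPM in control base (0.12). Otof, otoferlin, which is needed for release at the inner hair cell synapse, fell by 0.32 on the log2 scale, and Myo7a by 0.17. Atoh1, the hair cell determination factor, was at 0.0386 CPM in Fst cKO base, under the floor, and had no count in control base. None of 15 supporting cell genes was called, while 7 passed on the higher and 4 on the lower side (median 0.05): the gap junction genes Gjb2 (0.13) and Gjb6 (0.04) were near their control levels, Slc1a3 (0.28) and Fgfr3 (0.37) were higher and Prox1 (-0.65), Sox2 (-0.36) and Hey2 (-0.34) were lower. Hes5, a Notch target at 0.231 CPM in Fst cKO base and 0.422 CPM in control base, gave -0.85 and did not pass. In the tectorial membrane list 3 of 6 passed on the higher side, among them Tecta (0.58), and 2 on the lower side, Otoa (-0.29) and Ceacam16 (-0.22), and Tectb, at 0.0899 CPM in Fst cKO base and 0.143 CPM in control base, gave -0.72 and did not pass. Of 11 fibrocyte genes 3 passed on the higher and 7 on the lower side. Coch, at 22889 ± 31.6 CPM in Fst cKO base and 23832 ± 87.1 CPM in control base (-0.07), and Otos (-0.14) were lower, and Car3, carbonic anhydrase 3, rose by 0.41. The endothelial and pericyte list had a median of -0.01 with no call in 12, and 2 passed on the higher and 3 on the lower side.

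Of the pathway that follistatin acts on, 38 genes were tested and 1 was called (median -0.02), Acvr1c, the activin-type receptor ALK7, at 1.05 ± 0.189 CPM in Fst cKO base and 0.448 ± 0.0892 CPM in control base (log2 1.21 ± 0.29). Without the fold threshold 7 were higher and 9 lower. Over all tested genes 3.03% were called, and without the fold threshold 16.5% were higher and 19.6% lower. The activin subunits Inhba, at 1.41 CPM in Fst cKO base and 1.10 CPM in control base (0.34), and Inhbb (0.21) did not pass. The related binding proteins Fstl1 (-0.12) and Fstl3 (0.22) passed in opposite directions. Among BMP ligands Bmp4 changed by 0.24, Bmp2 by -0.28 and Bmp6 by -0.09. The transducers Smad2 (-0.09) and Smad4 (0.01) did not pass, Smad3 (-0.10) and Smad5 (0.19) did, and of the target genes Id1 changed by 0.19, Id2 by -0.22 and Id3 by 0.02, the last not passing.

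Hedgehog signalling, which the title of the study names beside follistatin, had no called gene in 17 tested, with 5 higher and 6 lower by the adjusted p alone (median -0.07). The shares over all tested genes were 16.5% higher and 19.6% lower. The ligands Shh, at 2.93 ± 0.243 CPM in Fst cKO base and 4.57 ± 0.325 CPM in control base (-0.64), and Dhh (-0.37), a ligand of Schwann cells, were lower. The target genes Gli1 (-0.39), Hhip (-0.50) and Ptch1 (-0.07) were lower. Smo (-0.01), Gli2 (0.08), Gli3 (0.19), Sufu (0.09) and the coreceptors Gas1 (0.17), Cdon (0.10) and Boc (0.16) stood at or slightly above control levels. Of these, Smo and Gli2 did not pass.

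The most abundant genes shifted moderately. In the 2166 genes with at least 100 CPM the median absolute log2 change was 0.07 and the 90th percentile 0.31, beside a median standard error of 0.0214, and 26.1% passed the adjusted p as higher and 35.4% as lower. Of these genes 86 changed by more than 0.5, 17 upward and 69 downward. Dnase1, a secreted nuclease, was at 1757, 1754 and 1742 CPM in Fst cKO base, against 994, 1015 and 1029 CPM in control base (log2 0.78 ± 0.0053), and changed by -0.01 in middle and -0.06 in apex. Anxa1, an annexin, rose by 0.66 and Dbp, a clock output factor, by 0.62. Besides Xist, Col1a1 and Calb2, the largest falls were Nnat, neuronatin (-0.76), Mdga1, a membrane-anchored protein that binds neuroligins (-0.75), Hapln4, a link protein of perineuronal matrix (-0.75), Stac2 (-0.74) and Kcnab2, an auxiliary subunit of potassium channels (-0.73). Mdga1 was at 426, 419 and 428 CPM in Fst cKO base, against 715, 712 and 697 CPM in control base.

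Gene groups of the interferon response, stress hormones and the clock also differed. All 13 tested interferon response genes passed the adjusted p on the higher side (median 0.47), and Ifit3 (1.01) and Rsad2, viperin (1.19), were called, Ifit3 not without control replicate 3 (0.992) or Fst cKO replicate 1 (0.996). Of 9 glucocorticoid and metal response genes none was called, and 8 passed the adjusted p on the higher side. Fkbp5 led them at 89.8 ± 3.42 CPM in Fst cKO base and 50.2 ± 0.171 CPM in control base (0.83). Among 16 clock genes none was called either, while 12 passed on the higher and 3 on the lower side (median 0.17). Over all tested genes 16.5% passed as higher and 19.6% as lower. Per1 (0.50), Per2 (0.82) and Ciart (0.53) stood higher and Npas2 (-0.60) and Arntl (-0.27), which peak at another time of day, lower. Per1 changed by 0.50 in middle and 0.50 in apex too. The 7 tested mitochondrial transcripts were all higher (median 0.19, mt-Co1 at 13459 ± 69.0 CPM in Fst cKO base and 11230 ± 94.5 CPM in control base), and 5 further ones were listed at 0 in all base libraries. None of 12 immediate early genes was called (median 0.02).

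Sex-linked transcripts differed between the pools. Xist, the RNA of the inactive X chromosome, was at 57.7, 58.7 and 60.2 CPM in Fst cKO base, against 302, 306 and 298 CPM in control base (log2 -2.37 ± 0.023). The Y-linked genes Eif2s3y (1.02), Ddx3y (0.68), Uty (0.71) and Kdm5d (0.71) were higher, Eif2s3y not being called without control replicate 1 or Fst cKO replicate 3. Both kinds were present in both pools, and Xist was also lower in the middle (-1.77) and apex (-2.16). What part the sex make-up or the hour of sampling has in the other changes was not tested.

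The remaining large falls were mostly pseudogenes, unnamed models and scarce transcripts. Gm14150, at 0.141 CPM in Fst cKO base and 2.55 CPM in control base (-4.14), Gm6969 (-3.90) and Gm13443 (-1.30) are processed pseudogenes, whose counts are uncertain, and Gm14150 and Gm6969 were about as low in middle (-5.39, -2.80) and apex (-4.64, -3.82). Gm8220 fell by 1.80 on the log2 scale, Pvt1, a long noncoding RNA, by 1.51, and Cntnap5c by 1.22. Them5, an acyl-CoA thioesterase, was at 3.20 ± 0.316 CPM in Fst cKO base and 7.91 ± 0.629 CPM in control base (-1.31). Cartpt, a neuropeptide precursor, was at 3.67, 3.62 and 3.69 CPM in Fst cKO base, against 9.58, 8.22 and 9.16 CPM in control base (-1.30 ± 0.10), and Shisa3 changed by -1.26.

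Some of the genes called in the base were called in the other regions too, in larger shares than the 2.15% (middle) and 1.49% (apex) of all tested genes called higher there and the 0.575% and 0.553% called lower. Of the 450 genes called higher in the base, 75 were called higher in the middle (16.7% of the base calls and 19.5% of the middle calls) and 82 in the apex (18.2% and 30.8%). Of the 92 called lower, 12 were called lower in the middle (13.0% and 11.7%) and 18 in the apex (19.6% and 18.2%). In all regions 16 genes were called higher and 8 lower. Called in the opposite direction were 16 of the higher genes in the middle and 7 in the apex, and 11 of the lower genes in the middle and 4 in the apex. Each region has control libraries of its own, but pieces of the same animals may be in the pools of several regions.

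**Figure D5:**
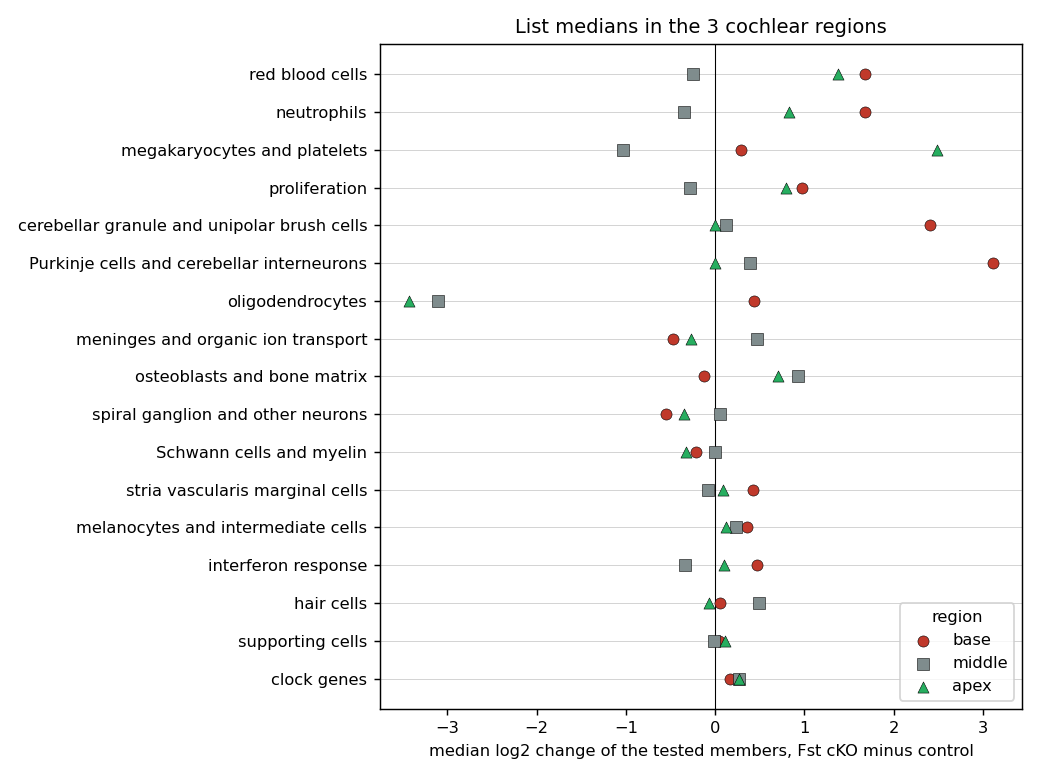
Median log2 change (Fst cKO minus control) of the tested members of 17 gene lists in base (red circles), middle (grey squares) and apex (green triangles). The cerebellar medians, 2.41 and 3.12, stand apart from 0.12 and 0.39 in the middle and 0.00 for both lists in the apex. The red cell and neutrophil medians, both 1.68, lie above the apex values of 1.38 and 0.82 and far above the middle. The neuronal median of -0.55 is the lowest and the marginal cell median of 0.42 the highest of the 3 regions.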

How the data were processed

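The authors deposited estimated counts per gene and library, not normalized, and FPKM values, fragments scaled by gene length and library size. STAR 2.5.2b, Cuffdiff 2.2.1 and the build GRCm38/mm10 are named per the submitters' processing notes, which are used here without roles or settings. Between 89.2% and 89.9% of the count values in each library, zeros included, were whole (tolerance 1e-06), and all were rounded. CPM was computed from library totals. All 18 libraries were fitted as 6 groups with edgeR 4.0.16 (quasi-likelihood test, TMM scaling, filterByExpr, R 4.3.3), which left 17901 of 46583 genes and 12 residual degrees of freedom. Adjustment (Benjamini-Hochberg) ran over every tested gene. Alternatives used DESeq2 1.42.0 and limma 3.58.1 on the deposited FPKM values, and the fit was tested on simulated data. Gene positions are from GENCODE M21. The named genes are the 12 largest called changes each way at 1 CPM or more, the 8 largest each way at 100 CPM or more, and members of the gene lists. Some items are not reported here. Members and lists were chosen with earlier results of these data known.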

Additional observations from a re-analysis of the deposited data

Results flagged for a closer look

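Among the genes chosen by rule for naming, there were 8 for which the change in the base and the change in another region were called in opposite directions and the test of the difference itself was called (edgeR, adjusted over all tested genes). Col1a1 had a log2 change of -1.52 in the base and 1.44 in the middle, a difference of -2.96 ± 0.027 (adjusted p = 1.3e-40). Slc47a1 changed by -1.50 in the base and by 1.69 in the middle, a difference of -3.19 ± 0.093 (adjusted p = 4.18e-25). For Shisa3 the changes were -1.26 in the base and 1.604 in the middle, a difference of -2.86 ± 0.28 (adjusted p = 2.14e-10). Zic1, a granule cell factor, changed by 2.35 in the base, against -1.74 in the apex, a difference of 4.09 ± 0.28 (adjusted p = 6.93e-14). Its apex levels were low, 0.284 CPM in Fst cKO apex and 0.975 CPM in control apex. In the middle Zic1 was called higher too (1.39), and its base and middle changes were not called different. Lhx1 gave 2.86 in the base and -1.86 in the middle, which differ by 4.72 ± 0.37 (adjusted p = 1e-12). Olig1 stood at 1.77 in the base, -3.10 in the middle and -3.48 in the apex, so that the base lay 4.87 above the middle (adjusted p = 7.33e-17) and 5.26 above the apex (adjusted p = 9.95e-06). Olig2 differed by 5.27 ± 0.58 between base and middle (2.17 and -3.10, adjusted p = 4.52e-09), and Slc6a11 by 2.55 ± 0.38 (1.08 and -1.47, adjusted p = 1.32e-06). Each value compares pools, with 1 pool per region and genotype.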

How the results depend on the processing

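The number of genes called in the base depended on how small changes and scarce genes were treated. Against 542 called genes (450 higher, 92 lower), a minimum of 5 CPM left 102 (90 and 12), dropping the fold threshold gave 6459 (2945 and 3514), edgeR's glmTreat against a log2 change of 1 gave 204 (196 and 8), and limma on log2(FPKM + 1) gave 122 (115 and 7). With log2(FPKM + 0.1) the lower count was 42. The difference of base and apex changes, called for 432 genes (279 higher, 153 lower), was called under those 4 settings in the same order for 95 (71 and 24), 4439 (1524 and 2915), 130 (95 and 35) and 111 (84 and 27). For base and middle, 841 genes (455 and 386) became 201 (91 and 110), 5985 (2700 and 3285), 294 (179 and 115) and 246 (140 and 106). Leaving out 1 base library at a time gave 532 to 585 called genes in the base, DESeq2 gave 484 and the 6 base libraries alone 477. Fst was not called under any of the 15 settings that tested it, with log2 changes from -0.26 to -0.11.

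Signs turned only for genes with changes near 0 that were never called. Smo gave 0.0060 with the base libraries alone, 0.0013 with FPKM at either pseudocount and 5.4e-05 with DESeq2, and S100b gave 0.0038 with the base libraries alone. Ccdc39 gave -0.043 and -0.051 with FPKM at a pseudocount of 1 and 0.1. With single libraries left out, Blnk ranged from -0.051 to 0.14, Whrn from -0.022 to 0.032, S100b from -0.014 to 0.00094, Smo from -0.017 to 0.011, Id3 from -0.0054 to 0.039, Ccdc39 from -0.035 to 0.058 and Jun from -0.033 to 0.0054. The cause was not tested. The list medians of red cells, neutrophils, cerebellar cells, meninges, neurons, channels, Schwann cells and marginal cells kept their sign under all 16 settings. Medians near 0 changed sign, in 8 settings for the choroid plexus, 3 each for osteoclasts, the tectorial membrane and immediate early genes, and 2 each for endothelium and motile cilia. With log2(FPKM + 1) the median was 1.12 for Purkinje cells, 0.63 for proliferation and 0.049 for oligodendrocytes, and a minimum of 5 CPM gave 0.045 for platelets.

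Replicate numbers name technical libraries and did not pair them: deviations of same-numbered Fst cKO and control libraries correlated at -0.0162, -0.0305 and -0.0075 over 12353 genes. A fit with the replicate number as a block called 544 genes in the base. Depth limits scarce genes, since 3 counts correspond to 0.0964 to 0.123 CPM.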
